A study of Mus musculus with 6 samples.

Results

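The transcription factor genes Tcf7, Lef1, Id2, Id3, Bach2, Satb1, Foxo1 and Klf2, and S1pr1, the gene for a receptor that KLF2 controls, were followed in mouse CD4 T cells with and without deletion of Prmt5. These 9 genes were taken by name from the deposited table of 54525 genes, with knockout (KO) set against control (WT), and all 9 passed the filter on low counts that left 16006 tested genes. Naive CD4 T cells of C57BL/6 mice came from spleen and lymph nodes. They were cultured for 72 hours with antibodies to CD3 and CD28, which activate T cells, and with recombinant human TGFβ and mouse IL-6, which direct them toward the Th17 type. The WT group was 3 cultures of genotype iCD4-PRMT5fl/fl, which carry the floxed allele undeleted, and the KO group was 3 cultures of genotype iCD4-PRMT5delta/delta. All 6 cultures received the same activation and cytokines. The labels do not expand iCD4, and they state neither the age and sex of the mice nor how and when deletion was brought about. The bulk RNA of a culture mixes all of its cells.

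Naive T cells keep a set of transcription factors that hold them quiescent and circulating, and activation turns most of this set down. TCF1 (from Tcf7) and LEF1 are DNA-binding partners of β-catenin that mark naive and memory cells, BACH2 and SATB1 restrain effector genes, and ID2 and ID3 bind E proteins and keep them off DNA. FOXO1 stays in the nucleus until the kinases AKT and SGK1 phosphorylate it, and it drives genes of survival and lymph node homing, among them Klf2. KLF2 in turn activates S1pr1, whose product lets T cells leave lymphoid organs along a gradient of the lipid S1P.

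The libraries held 36011906 to 43141474 counts each. Prmt5 stood at 109, 137 and 118 CPM (counts scaled for library depth by TMM) in WT replicates 1, 2 and 3 and at 52.4, 43.8 and 52.9 CPM in KO. KO libraries averaged 41.0% of WT (log2 change -1.29 ± 0.11 SE, edgeR adjusted p = 0.00012). Reads of 4 Y-linked genes were present in the KO libraries alone, at 0.97, 0.13 and 1 of their highest level in KO replicates 1, 2 and 3. If these reads mark male cells, sex differed with genotype, and the 2 cannot be told apart in any comparison of KO with WT. Each KO column name also joins a number of its own to a shared 51 with the word plus, where each WT name has 1 number. The meaning of these names is not given, and if they mark pooling, KO and WT differ in that too. If 51 marks a common source, the KO cultures were not independent and the p-values are too small. The T cell markers Cd3d, Cd3e, Cd3g, Cd4, Cd5, Lck and Cd28 summed to between 1944 and 2267 CPM in all 6 libraries. Within that sum Cd3e and Lck were higher in KO (log2 0.39 each, edgeR adjusted p = 0.0274 and 0.00239). Cd28 was lower (log2 -0.49, edgeR adjusted p = 0.00244). Of the Th17 genes, Il17f, a cytokine of these cells, stood at 277, 346 and 390 CPM in WT and at 14.6, 16.5 and 15.6 CPM in KO. Il17a was at 5.95, 8.30 and 7.80 CPM and at 4.28, 4.08 and 4.77 CPM, and Il23r, the receptor that sustains Th17 cells, at 17.6, 21.6 and 23.0 CPM and at 0.62, 1.25 and 1.598 CPM. These 3 were lower in every KO library and above 0 in all 6, while Ccr6, a chemokine receptor of the same cells, was higher in KO (4.47 to 6.23 CPM in WT and 12.9 to 19.3 CPM in KO).

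Of the 9 genes, 5 rose in KO, 1 fell and 3 were not called. Tcf7, Lef1, Id3, Bach2 and Satb1 rose, S1pr1 fell, and Id2, Foxo1 and Klf2 did not pass the test. A call means an edgeR quasi-likelihood p under 0.05 after Benjamini-Hochberg adjustment over all 16006 tested genes. Among those genes 42.5% were called, 21.7% higher and 20.9% lower, so calls were common in this comparison. The median log2 change of the 9 genes was 0.37, beside a median of 0.00 over all tested genes. The 3 KO values lay above the 3 WT values for 5 of the 9 genes and below them for 1, beside 28.2% and 27.5% of all tested genes. The authors' deposited table gives an adjusted p under 0.05 to 5 of these genes as higher and to 1 as lower. More cells that carry a transcript and more of it per cell cannot be told apart in these cultures.

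**Figure D1:**
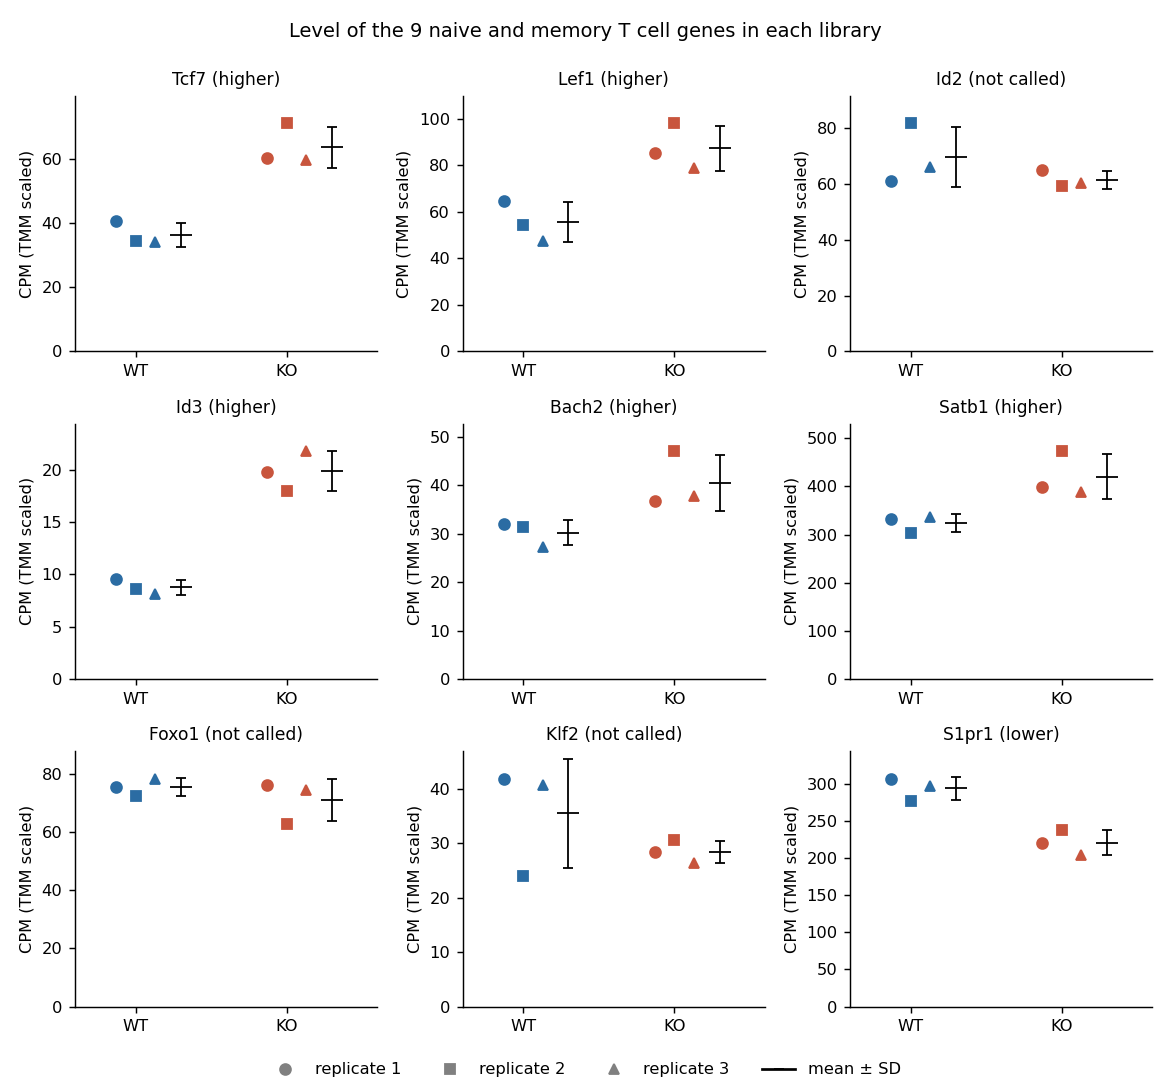
Level of each of the 9 genes in CPM (y axis from 0) in the 3 WT (blue) and 3 KO (red) libraries, with mean ± SD beside the points and the replicate given by the symbol. Tcf7, Lef1, Id3, Bach2 and Satb1 are higher in every KO library than in every WT library, S1pr1 is lower in every KO library, and Id2, Foxo1 and Klf2 overlap.

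Tcf7 and Lef1 rose together. Tcf7 (ENSMUSG00000000782.15, GRCm38 chromosome 11, 52252371 to 52283014, minus strand) stood at 40.6, 34.3 and 33.9 CPM in WT replicates 1 to 3 and at 60.2, 70.9 and 59.5 CPM in KO. The KO mean of 63.5 ± 6.39 CPM (SD, n = 3) was 175% of the WT mean of 36.3 ± 3.74 CPM (log2 0.81 ± 0.10 SE, 95% interval 0.57 to 1.05, edgeR adjusted p = 0.000717). The lowest KO library was above the highest WT library by more than the SD of either group. Lef1 (ENSMUSG00000027985.14, chromosome 3, 131110471 to 131224356, plus strand) stood at 64.8, 54.2 and 47.6 CPM in WT and at 85.1, 97.9 and 78.6 CPM in KO. Its log2 change was 0.65 ± 0.13 (interval 0.36 to 0.95, edgeR adjusted p = 0.00504). Both genes were highest in KO replicate 2 and lowest in WT replicate 3. The log2 ratio of Tcf7 to Lef1 was -0.61 ± 0.10 in WT and -0.46 ± 0.05 in KO, and the 2 groups overlapped (two-sided exact permutation p = 0.2, where 3 against 3 libraries cannot go below 0.1).

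The sequences around the starts of Tcf7 and Lef1 are shown because both genes rose, and those of Id2 and Id3 because only 1 of these paralogs was called. They run from 250 bases before to 50 bases after the most upstream start in RefSeq (GRCm38.p6), 5′ to 3′ on the gene's strand. Capitals mark matches, on either strand, to CANNTG, the E-box that E proteins bind, to CACCC, the core bound by KLF factors, to CTTTGA, a core of TCF and LEF sites, to GTAAACA, bound by FOXO factors, or to TGAGTCA, which BACH2 shares with AP-1. Windows lie at chr11:52282965-52283264 (minus), chr3:131110047-131110346 (plus), chr12:25096043-25096342 (minus) and chr4:136143572-136143871 (plus) in the order printed.
Tcf7: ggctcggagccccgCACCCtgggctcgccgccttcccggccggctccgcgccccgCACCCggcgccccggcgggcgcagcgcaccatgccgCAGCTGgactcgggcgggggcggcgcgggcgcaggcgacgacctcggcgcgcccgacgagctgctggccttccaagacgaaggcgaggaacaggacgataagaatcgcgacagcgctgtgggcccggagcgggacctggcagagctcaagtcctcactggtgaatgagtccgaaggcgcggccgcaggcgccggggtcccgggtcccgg
Lef1: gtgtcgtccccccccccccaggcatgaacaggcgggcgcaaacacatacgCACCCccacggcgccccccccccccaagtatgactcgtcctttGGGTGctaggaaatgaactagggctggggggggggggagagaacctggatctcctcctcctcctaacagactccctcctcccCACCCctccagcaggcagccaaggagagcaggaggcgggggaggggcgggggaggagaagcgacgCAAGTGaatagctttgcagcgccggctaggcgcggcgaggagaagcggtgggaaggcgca
Id2: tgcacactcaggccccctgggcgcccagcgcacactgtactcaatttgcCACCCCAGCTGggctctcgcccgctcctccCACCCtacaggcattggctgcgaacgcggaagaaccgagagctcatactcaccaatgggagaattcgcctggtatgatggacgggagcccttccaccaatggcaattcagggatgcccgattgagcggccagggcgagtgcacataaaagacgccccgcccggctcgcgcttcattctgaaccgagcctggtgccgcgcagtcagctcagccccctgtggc
Id3: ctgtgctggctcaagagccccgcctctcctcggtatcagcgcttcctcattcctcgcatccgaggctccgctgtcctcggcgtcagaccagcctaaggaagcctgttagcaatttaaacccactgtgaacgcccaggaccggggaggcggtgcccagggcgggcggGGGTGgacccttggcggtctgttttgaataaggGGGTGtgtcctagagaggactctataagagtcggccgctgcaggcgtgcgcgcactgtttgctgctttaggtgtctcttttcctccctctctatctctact

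Of 9 genes 8 had such a window, with Tcf7, Lef1, Id2, Satb1 and Foxo1 each holding 1 match to CANNTG and Id3, Bach2 and Klf2 holding 0, while 72.3% of all 32851 RefSeq windows hold at least 1. The core CACCC matched 2 times in Tcf7, Id2, Id3 and Satb1, 3 times in Lef1, 1 time in Klf2 and 0 times in Bach2 and Foxo1, against 57.5% of all windows with a match. CTTTGA was found only in the Bach2 window among the 8 (5257 of all windows), which lies at chr4:32417185-32417484 (plus), far inside the span of Bach2 in the annotation, and neither GTAAACA (3.6%) nor TGAGTCA (5.2%) was found in the 8. In Id2 a CACCC match and an E-box stand directly side by side without sharing a base. In the Tcf7 window an atg just before the E-box opens a reading frame with no stop up to the window's end. The E-box of Tcf7 may therefore lie in coding sequence, and the listed start may not be the first of the gene. These matches describe letters and are no evidence of binding.

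The partners of TCF1 and LEF1 did not move as a block. Of 14 other tested genes for TCF/LEF factors and β-catenin partners, 1 rose and 2 fell (median log2 -0.14). Thus 21.4% were called, beside 42.5% of all tested genes. Axin2, a target of β-catenin signalling whose product promotes β-catenin breakdown, fell from 5.38, 4.03 and 5.595 CPM to 2.16, 2.17 and 2.34 CPM (log2 -1.17 ± 0.17, edgeR adjusted p = 0.0012). Tle1, a corepressor that TCF factors recruit, fell (log2 -1.08 ± 0.15), and Bcl9l, a β-catenin coactivator, rose by log2 1.04 ± 0.19. Gsk3b, the kinase that marks β-catenin for breakdown, was not called (log2 -0.17 ± 0.08, edgeR adjusted p = 0.128). The calls of Axin2 and Bcl9l were lost when KO replicate 2, which stood apart in Y-linked reads, represented KO alone (adjusted p = 0.055 and 0.0685) at log2 changes of -1.19 and 1.11. The other TCF genes had few reads, with Tcf7l1 at 0.14 to 0.29 CPM and Tcf7l2 at 0 to 5 counts in each library.

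Id3 rose and its paralog Id2 was not called. Id3 (ENSMUSG00000007872.3, chromosome 4, 136143497 to 136145755, plus strand) stood at 9.54, 8.65 and 8.15 CPM in WT and at 19.8, 18.0 and 21.8 CPM in KO. KO libraries averaged 226% of WT (log2 1.18 ± 0.11, interval 0.92 to 1.44, edgeR adjusted p = 0.000193), the greatest change of the 9 genes, and the groups were far apart. Id2 (ENSMUSG00000020644.9, chromosome 12, 25093799 to 25097140, minus strand) stood at 60.9, 81.5 and 66.1 CPM in WT and at 65.0, 59.0 and 60.1 CPM in KO. WT replicate 2 was the high library, WT replicate 1 lay among the KO values and WT replicate 3 just above them, and the log2 change of -0.18 ± 0.11 (interval -0.44 to 0.08) was not called (edgeR adjusted p = 0.226). Without WT replicate 2 it was -0.05, and without WT replicate 1 it was -0.27. The log2 ratio of Id3 to Id2 was -2.67, -3.23 and -3.01 in WT and -1.71, -1.71 and -1.46 in KO. That ratio differed by 1.34 without overlap of the groups, at p = 0.1 in the two-sided exact permutation test, the smallest it allows, and at 0.25 after Benjamini-Hochberg adjustment over the 5 ratios compared. The ratio of Tcf7 to Id2, a factor linked to effector cells, went from -0.93 ± 0.33 to 0.05 ± 0.19 on the log2 scale, with the same p values.

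Id1, the third ID gene expressed, moved opposite to Id3. It fell from 2.66, 2.53 and 2.23 CPM to 0.91, 1.06 and 0.86 CPM (log2 -1.39 ± 0.17, edgeR adjusted p = 0.000652), and Id4 had 1 count in 1 library and 0 in the others. Among the E proteins that ID factors bind, Tcf12 (HEB) rose from 124, 108 and 120 CPM to 153, 151 and 151 CPM (log2 0.37 ± 0.06, edgeR adjusted p = 0.00283). Its call was lost when KO replicate 2 stood alone for KO (adjusted p = 0.0856) and when the Y-linked level entered the model (0.0524). Tcf3 (E2A) was not called (log2 0.02 ± 0.26), with WT replicate 2 at 16.5 CPM below the other WT libraries at 37.4 and 33.3 CPM, and without that library its log2 change was -0.26 (adjusted p = 0.0256). Tcf4 (E2-2), which B cells and plasmacytoid dendritic cells also express, was at 9.09, 9.06 and 11.3 CPM in WT and at 16.3, 10.5 and 21.8 CPM in KO. Its groups overlapped and its call (log2 0.72 ± 0.25, edgeR adjusted p = 0.0496) was lost in 10 of 17 alternatives, with a log2 change of -0.04 under the Y-linked term.

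Bach2 and Satb1 rose less. Bach2 (ENSMUSG00000040270.16, chromosome 4, 32238804 to 32586108, plus strand) stood at 32.0, 31.4 and 27.3 CPM in WT and at 36.7, 47.1 and 37.7 CPM in KO. The groups did not overlap but KO replicate 1 was close to WT replicate 1, and the log2 change was 0.42 ± 0.12 (interval 0.15 to 0.69, edgeR adjusted p = 0.0218). Without WT replicate 3, the lowest library, the call was lost (log2 0.35, adjusted p = 0.0773). Satb1 (ENSMUSG00000023927.15, chromosome 17, 51736187 to 51833290, minus strand) stood at 333, 303 and 337 CPM in WT and at 399, 473 and 389 CPM in KO. Its KO mean was 130% of the WT mean (log2 0.37 ± 0.09, interval 0.18 to 0.57, edgeR adjusted p = 0.0102). Every KO library was above every WT library, with KO replicate 2 well above the other KO libraries. With spike-in scaling the call was lost (log2 0.50, adjusted p = 0.0526).

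Among the relatives and partners of BACH2, 1 of 4 tested genes was called, and it fell, where 42.5% of all tested genes were called. Bach1, which binds similar sites and represses heme oxygenase, was at 37.6, 20.6 and 32.7 CPM in WT and at 20.03, 22.1 and 20.5 CPM in KO. WT replicate 2 lay among the KO libraries and Bach1 was not called (log2 -0.54 ± 0.20, edgeR adjusted p = 0.0643), while without that library its log2 change was -0.75 (adjusted p = 0.000362). Of the small MAF genes, whose products pair with BACH factors, Mafg fell (log2 -0.52 ± 0.09, edgeR adjusted p = 0.00289) and Maff and Mafk were not called. The Mafg call was lost with spike-in scaling, when KO replicate 2 stood alone for KO and under the Y-linked term (adjusted p = 0.228, 0.0662 and 0.0595). Prdm1, which encodes the effector factor Blimp-1 and is known as a gene that BACH2 represses, fell from 3.26, 3.05 and 3.56 CPM to 0.50, 1.06 and 0.65 CPM (log2 -2.16 ± 0.26, edgeR adjusted p = 0.000592).

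Foxo1 was not called. Foxo1 (ENSMUSG00000044167.6, chromosome 3, 52268336 to 52353221, plus strand) stood at 75.6, 72.4 and 78.3 CPM in WT and at 76.1, 62.8 and 74.5 CPM in KO. The groups overlapped, with KO replicate 2 as the low library, and the log2 change was -0.08 ± 0.08 (edgeR adjusted p = 0.455). Its 95% interval ran from -0.28 to 0.11, and the sign was positive without KO replicate 2 (0.01) and with spike-in scaling (0.06). Foxo4 fell from 20.9, 27.2 and 20.98 CPM to 7.45, 7.53 and 8.04 CPM (log2 -1.59 ± 0.13, edgeR adjusted p = 0.000104), a separation several times the spread of either group. Foxo3 was not called (log2 0.10 ± 0.14, edgeR adjusted p = 0.594), and Foxo6 had 1 count in 1 library.

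In the list of FOXO factors and of genes that control them, more genes fell than rose. Of 11 tested genes other than Foxo1 in this list, which includes Foxo3 and Foxo4, 2 rose and 6 fell (median log2 -0.36). Thus 72.7% were called, beside 42.5% of all tested genes (21.7% higher and 20.9% lower). Foxo4 is among the 6 that fell. Sgk1, a kinase that phosphorylates FOXO factors, fell from 503, 616 and 572 CPM to 101, 125 and 101 CPM (log2 -2.37 ± 0.11, edgeR adjusted p = 1.65e-05). Pik3cg, a catalytic PI3K subunit activated through G protein-coupled receptors, fell from 70.8, 87.0 and 88.2 CPM to 24.2, 24.7 and 25.8 CPM (log2 -1.72 ± 0.10). Pik3cd, the main catalytic subunit downstream of the T cell receptor, rose from 542, 439 and 536 CPM to 747, 732 and 729 CPM (log2 0.54 ± 0.08, edgeR adjusted p = 0.00171), a call lost when KO replicate 2 stood alone for KO (0.065).

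Known FOXO target genes split. Of 13 tested targets other than Klf2, 4 rose and 3 fell (median log2 0.04), and 53.8% were called, beside 42.5% of all tested genes. Sesn3, a stress-induced regulator of growth signalling, rose from 128, 191 and 146 CPM to 289, 290 and 299 CPM (log2 0.92 ± 0.13, edgeR adjusted p = 0.00133). Sesn1, which p53 also induces, rose by log2 0.67 ± 0.07, and Pik3ip1, an inhibitor of PI3K, by log2 0.55 ± 0.07. The homing and survival targets Ccr7 (log2 0.08 ± 0.21) and Il7r (log2 0.12 ± 0.10), chosen after their values were seen, were not called (edgeR adjusted p = 0.796 and 0.393).

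Klf2 was not called and S1pr1 fell. Klf2 (ENSMUSG00000055148.7, chromosome 8, 72319033 to 72321656, plus strand) stood at 41.9, 24.0 and 40.8 CPM in WT and at 28.4, 30.6 and 26.5 CPM in KO. WT replicate 2 was below every KO library and the other WT libraries were above them, so the WT values varied most of all 9 genes (SD 28.3% of the mean, against 7.17% in KO). The log2 change was -0.32 ± 0.20 (interval -0.79 to 0.15, edgeR adjusted p = 0.236), and without WT replicate 2 it was -0.54 (adjusted p = 0.00115). The Klf2 transcript has 61.6% G and C, more than 98.3% of tested genes with a value. A GC correction added after the data were seen gave Klf2 a log2 change of -0.27 (adjusted p = 0.283). In WT replicate 2 Klf2 lay at log2 -0.52 from its mean over the WT libraries. Tested genes with 57.3% to 85.7% G and C lay there at a median of -0.008. The part of GC content in the low WT replicate 2 was not tested.

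S1pr1 (ENSMUSG00000045092.8, chromosome 3, 115710433 to 115715072, minus strand) stood at 307, 277 and 297 CPM in WT and at 220, 238 and 204 CPM in KO. KO libraries averaged 75.2% of WT (log2 -0.41 ± 0.07, interval -0.58 to -0.24, edgeR adjusted p = 0.00304), and every KO library was below every WT library. The call was lost when KO replicate 2 stood alone for KO (log2 -0.29, adjusted p = 0.0973), under the Y-linked term (-0.27, 0.0888) and with spike-in scaling (-0.27, 0.368). Spike-in scaling moved the median of all tested genes to 0.14, and relative to that median S1pr1 stood at -0.41. The log2 ratio of S1pr1 to Klf2 was 2.87, 3.53 and 2.86 in WT and 2.95, 2.96 and 2.94 in KO, so the KO libraries had nearly 1 ratio and lay inside the WT range (exact permutation p = 1).

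In the S1P pathway Cd69, whose product opposes S1PR1, rose. Of 13 tested genes other than S1pr1, 3 rose and 2 fell (median log2 -0.09), 38.5% in all, beside 42.5% of all tested genes. Cd69, an activation marker that binds S1PR1 and removes it from the cell surface, rose from 177, 167 and 160 CPM to 249, 243 and 234 CPM (log2 0.53 ± 0.06, edgeR adjusted p = 0.000377). Plpp2, a lipid phosphatase, and Sphk1, a kinase that makes S1P, had log2 changes of -1.21 ± 0.14 and -0.92 ± 0.18, both called lower. Sphk1 lost its call when KO replicate 2 stood alone for KO (adjusted p = 0.0746) and under the Y-linked term (0.088). Grk2, which desensitises S1PR1, rose by log2 0.25 ± 0.06, a call lost with those alternatives and with spike-in scaling (adjusted p = 0.111, 0.197 and 0.163). Among the other receptors S1pr4 was at 6.24 to 17.5 CPM, S1pr2 at 3.76 to 7.71 CPM and S1pr3 at 0.19 to 0.88 CPM, with none called, and S1pr5 had at most 2 counts in a library.

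Of 10 tested KLF genes other than Klf2, 1 rose and 2 fell (median log2 0.05), 30% called, beside 42.5% of all tested genes. Klf9 fell from 15.7, 14.4 and 14.7 CPM to 7.21, 7.37 and 6.97 CPM (log2 -1.06 ± 0.09, edgeR adjusted p = 0.000148), and Klf8 rose from 2.27, 1.62 and 1.91 CPM to 5.21, 5.38 and 5.49 CPM (log2 1.47 ± 0.16). Klf6 fell (log2 -0.55 ± 0.10), a call lost with spike-in scaling, when KO replicate 2 stood alone for KO and under the Y-linked term (adjusted p = 0.136, 0.117 and 0.104). Klf4, which holds naive cells quiescent, was low and not called (log2 0.58 ± 0.24, edgeR adjusted p = 0.087).

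**Figure D2:**
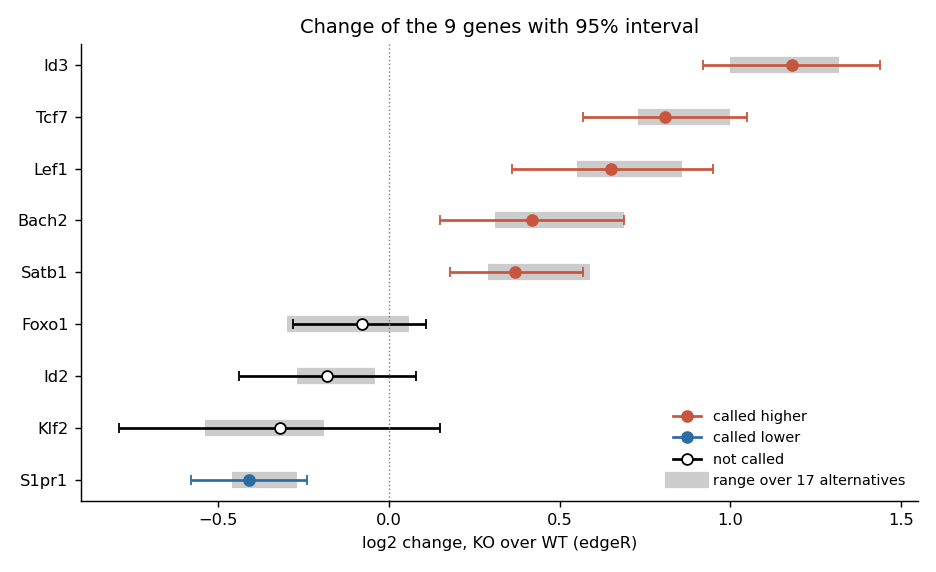
Log2 change of KO over WT for the 9 genes (x axis) with the 95% interval of the edgeR fit, coloured by call, over a grey bar that spans the values from 17 alternative analyses. Id3 at 1.18 and Tcf7 at 0.81 lie farthest to the right, S1pr1 at -0.41 farthest to the left, and the intervals of Foxo1, Id2 and Klf2 include 0.

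**Figure D3:**
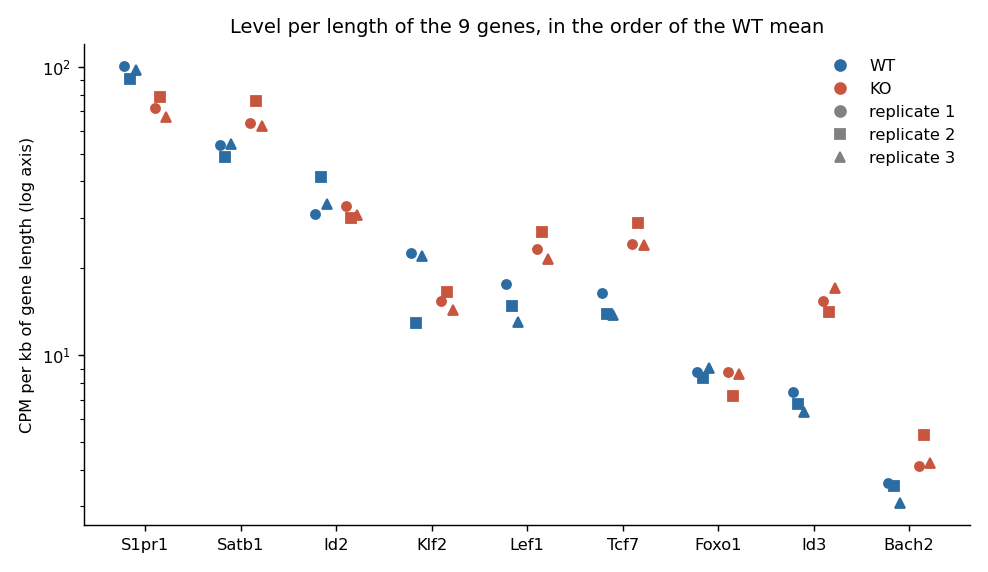
Level of the 9 genes per kilobase of gene length in each library (log axis), ordered by the WT mean. S1pr1 and Satb1 lead in both groups, Bach2 is lowest in both, and Id3 stands below Foxo1 in WT and above it in KO.

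Levels can be set against each other once divided by gene length, here the length in the deposited table. In WT the order was S1pr1 (96.3 ± 4.97 CPM per kb), Satb1 (51.9 ± 2.97), Id2 (35.3 ± 5.43), Klf2 (19.3 ± 5.44), Lef1 (15.2 ± 2.38), Tcf7 (14.7 ± 1.51), Foxo1 (8.71 ± 0.34), Id3 (6.87 ± 0.55) and Bach2 (3.41 ± 0.29 CPM per kb). Neighbours in that order had separate ranges apart from Klf2 with Lef1 and Lef1 with Tcf7. In KO the mean of S1pr1 was 72.4 ± 5.598 and that of Satb1 67.3 ± 7.39 CPM per kb, with overlapping ranges. Tcf7 (25.7 ± 2.59 CPM per kb) and Lef1 (23.9 ± 2.68) then stood above Id3 (15.5 ± 1.49) and Klf2 (15.4 ± 1.11), with overlap of Tcf7 with Lef1 and of Id3 with Klf2. Among all tested genes S1pr1 was above 95.4% per length in WT and Bach2 above 46.1%, while Id3 moved from above 57.7% in WT to above 73.1% in KO.

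Surface genes of naive and memory T cells moved in both directions. Of 19 tested genes 8 rose and 6 fell (median log2 0.26), 73.7% in all, beside 42.5% of all tested genes. Itgae, the integrin chain of tissue-resident cells, rose from 4.59, 9.83 and 8.49 CPM to 94.4, 95.3 and 104 CPM (log2 3.67 ± 0.25, edgeR adjusted p = 5.00e-05). Ccr9, a gut homing receptor, rose from 0.17, 0.22 and 0.15 CPM to 5.09, 6.12 and 2.34 CPM, and Cxcr5, the follicle homing receptor that B cells also carry, from 9.40, 8.65 and 9.62 CPM to 31.1, 23.8 and 37.6 CPM. Ly6c1, a surface antigen of some memory and effector cells, fell from 72.8, 69.7 and 99.1 CPM to 17.2, 23.9 and 20.5 CPM (log2 -1.97 ± 0.17). Cd69, given above, belongs to the same list.

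Factors known to oppose or accompany the naive programme were also divided. Of 14 tested genes 7 rose and 4 fell (median log2 0.18), 78.6% in all, beside 42.5% of all tested genes. Myb, which sustains T cells with high TCF1, rose from 52.4, 55.1 and 50.9 CPM to 115, 103 and 87.7 CPM (log2 0.95 ± 0.10, edgeR adjusted p = 0.000321). Zeb2, which promotes terminal effector cells, rose from 19.1, 16.7 and 19.5 CPM to 33.99, 33.3 and 41.2 CPM, and Nfil3 fell from 93.2, 129 and 112 CPM to 27.7, 31.6 and 34.8 CPM (log2 -1.83 ± 0.13). The fall of Prdm1 is given with Bach2.

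**Figure D4:**
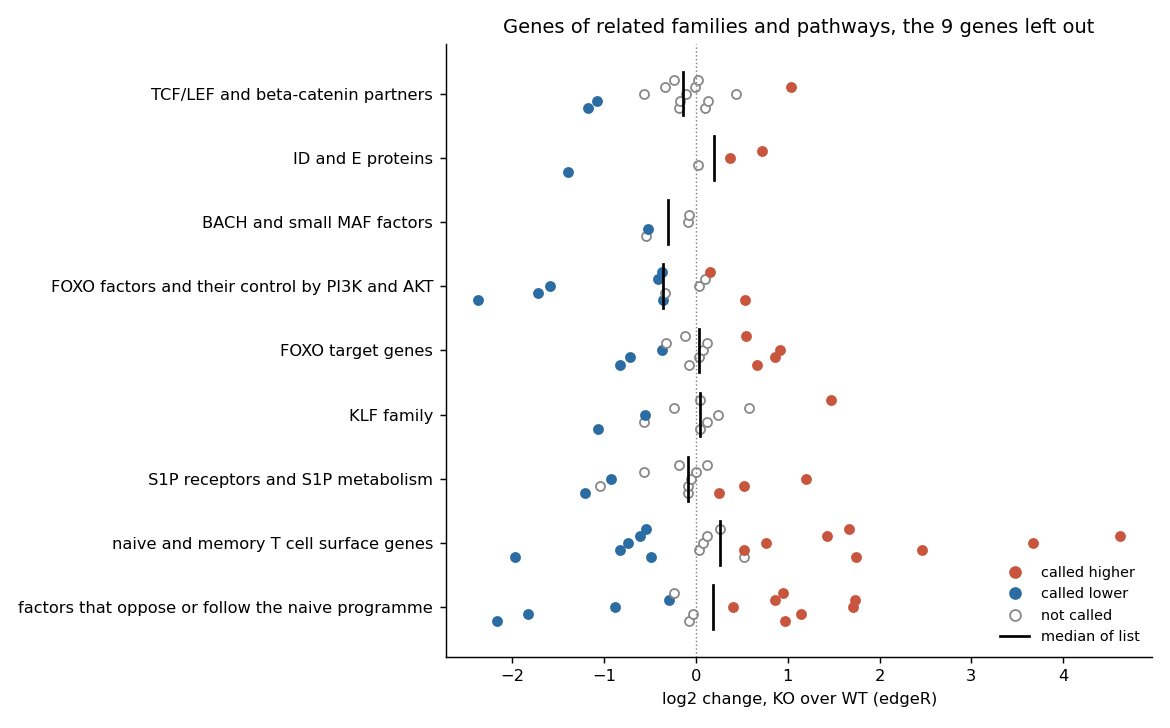
Log2 change of KO over WT (x axis) for the tested genes of each related list without the 9 genes themselves, 1 point per gene, filled where called, with the list median as a bar. Called genes stand on both sides of 0 in every list but BACH and small MAF factors, where 1 gene fell.

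Of the tested genes annotated inside these 9, some rose with their host. The annotation holds 15 genes that overlap Tcf7, Lef1, Bach2, Satb1 or Foxo1 on either strand, of which 13 were tested. In the edgeR test 6 rose and 0 fell, beside 21.7% higher and 20.9% lower of all tested genes. At an unadjusted p under 0.05, 0 were lower too. Of the 13, 6 overlap Satb1 and share that host, so they are not separate units. Gm43352 in Lef1 (log2 0.43 ± 0.16, edgeR adjusted p = 0.0685) and Gm24371 in Bach2 (0.69 ± 0.24, adjusted p = 0.0519) were higher at an unadjusted p under 0.05 but not called. Of 8 such genes of the class TEC, unspliced transcripts awaiting experimental proof, 4 rose, beside 20.7% of all TEC genes tested. The antisense gene A630014C17Rik in Tcf7 rose from 2.63, 3.54 and 2.99 CPM to 6.03, 5.01 and 4.96 CPM (log2 0.80 ± 0.16), close to the change of Tcf7. Gm38034, within Foxo1 on its strand, rose by log2 0.65 ± 0.20 (edgeR adjusted p = 0.0332) where Foxo1 did not. Bach2it1, in an intron of Bach2, was at 9.80, 9.75 and 7.71 CPM in WT and 6.75, 8.53 and 6.28 CPM in KO (log2 -0.34 ± 0.16, not called), opposite in sign to Bach2. These transcripts, named after their values were seen, were picked by position, total RNA holds unspliced host RNA, and strand use in counting is not stated, so reads of a host and of a gene inside it cannot be told apart.

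For each of the 9 genes the nearest patterns were sought among the 9712 tested genes averaging 5 CPM or more, by the root mean square distance of log2 CPM centred over the 6 libraries. The pair nearest to Tcf7 was Tgfbr3 and Rbm26 (0.05 log2 each), to Lef1 Notch1 and Tespa1 (0.05 each), to Id3 Bcl2a1b and Rrad (0.04 and 0.05), to Bach2 Btrc and Ireb2 (0.02 and 0.03), and to Satb1 Ubn2 and 6820431F20Rik (0.03 each). For S1pr1 they were Ccdc82 and Cyb5d1 (0.02 and 0.03), for Foxo1 Mcm3ap and Nol9 (0.03 each), for Id2 Taco1 and Pofut1 (0.03 each), and for Klf2 Rcor1 and Aes (0.04 each), which also dip in WT replicate 2. Bcl2a1b has near-identical copies, so its counts are uncertain.

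Markers of other cells moved with the genotype, where 21.7% of all tested genes were called higher and 20.9% lower. B cell markers summed to 4.54 to 24.2 CPM in WT and 44.1 to 122 CPM in KO, with 6 of 7 tested genes called higher. Markers of myeloid and dendritic cells summed to 1.498 to 6.34 CPM in WT and 11.2 to 37.6 CPM in KO, with 5 of 6 tested called higher and Fcgr1 and Siglech at 0 counts in all libraries. Gamma delta T cell genes summed to 12.6 to 16.5 CPM in WT and 57.2 to 102 CPM in KO (4 of 4 tested higher). CD8 genes stood at 5.58 to 7.88 and 14.7 to 17.2 CPM (2 of 2 higher), and those of NK and innate lymphoid cells at 31.1 to 45.0 and 60.4 to 98.9 CPM (2 higher and 1 lower of 3 tested, with Ncr1 under 0.5 CPM). Genes of proliferating cells summed to 6187 to 6669 CPM in WT and 4042 to 4401 CPM in KO (6 of 7 lower). Naive, B, NK and gamma delta cells carry several of the 9 transcripts, and the part of these cells in the changes was not tested.

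Tcf7, Lef1, Bach2 and Satb1, 4 of the 5 genes that rose, were highest in KO replicate 2 among KO libraries, where 38.0% of all genes called higher were. Tcf7, Lef1 and Satb1 ran from KO replicate 2 through 1 to 3, as did Klf2, which was not called, and S1pr1, which fell. The NK and innate lymphoid sum had that order too (98.9, 98.6 and 60.4 CPM), with replicates 2 and 1 nearly equal. Bach2 ran from KO replicate 2 through 3 to 1. Id3 ran from KO replicate 3 through 1 to 2, the order of the B cell sum (122, 61.6 and 44.1 CPM). The myeloid and dendritic sum had the order of Id3 as well (37.6, 14.2 and 11.2 CPM). Whether shared orders of 3 libraries reflect a link was not tested. The gamma delta sum was 102, 85.5 and 57.2 CPM in KO replicates 1, 2 and 3, and Foxo1 and Id2 were at their lowest KO level in KO replicate 2. When KO replicate 2 stood alone for KO, log2 changes were 0.98 for Tcf7, 0.83 for Lef1, 0.65 for Bach2 and 0.55 for Satb1. These 4 genes are highest in that library, which favours their rise in such a fit, while Id3, lowest in it, was at 1.04. The Y-linked term gave close values (1.00, 0.86, 0.69 and 0.59, and 1.00 for Id3), and the 5 calls were kept. Because KO replicate 2 stands apart in Y-linked reads, that fit leans on the same library and is no separate check.

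**Figure D5:**
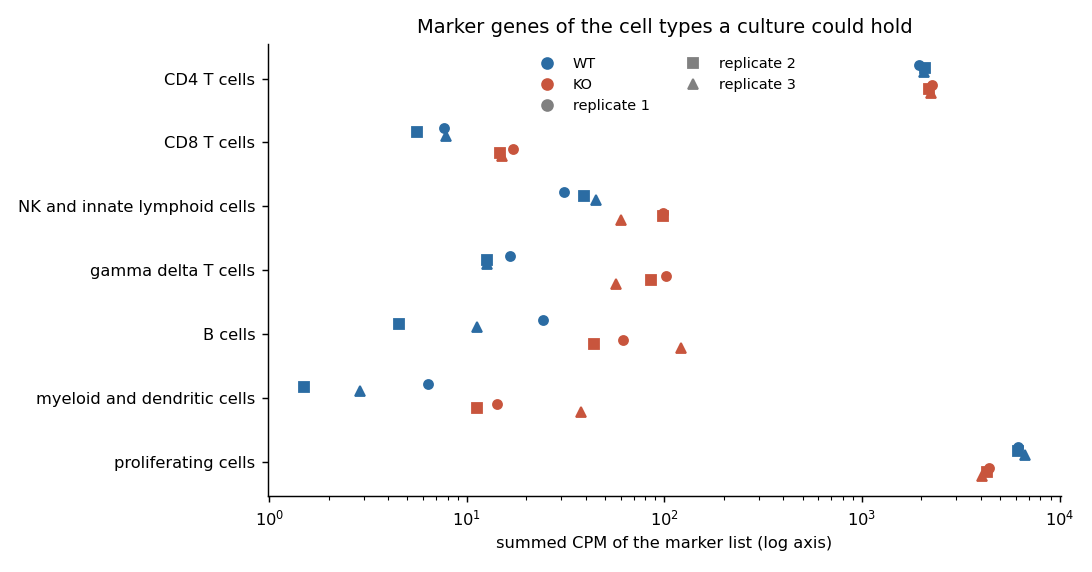
Summed CPM of 7 marker lists (log axis) in the 3 WT and 3 KO libraries, with the replicate given by the symbol. Lists for B, myeloid and dendritic, gamma delta, CD8 and NK cells are higher in every KO library than in every WT library, and the list for proliferating cells is lower.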

How the data were processed

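Total RNA of 6 cultures (3 WT, 3 KO) was sequenced as stranded libraries after ribosomal RNA removal, per the labels. The authors deposited whole-number counts per gene, a normalized signal, and their own log2 fold change and adjusted p-value of KO over WT, per the file headers. STAR, featureCounts, DESeq2, DESeq and GRCm38.p3 are named in the submitters' processing notes, with no versions and no statement of strand use. Each p-value measures the spread between the cultures, which the series calls biological replicates.

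Counts without the 92 spike-in RNAs were filtered with filterByExpr (minimum count 10, total 15), scaled by TMM and tested across all genes with the edgeR 4.0.16 quasi-likelihood test on genotype (limma 3.58.1, R 4.3.3), checked on simulated data. SE values are the coefficient over the square root of F. A gene at 0 allows up to 3 counts, 0.0695 to 0.0850 CPM per library, for counting error only. Log2 CPM used a prior count of 2. The 9 genes and the lists were chosen with earlier results of these data known. Genes named are the 9, their families, up to 4 others of each list with the lowest p, and the 2 nearest patterns, apart from some items that are not reported here. Positions came from GENCODE M21 (GRCm38). Tle5 is listed as Aes. Alternatives included DESeq2 1.42.0, other scalings and filters, libraries left out, a replicate block, the Y-linked term (summed Ddx3y, Uty, Kdm5d and Eif2s3y, relative to the highest library) and a GC correction chosen after seeing the data.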

Additional observations from a re-analysis of the deposited data

How the results depend on the processing

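The rises of Tcf7, Lef1 and Id3 were called in all 17 alternatives, at log2 changes of 0.73 to 1.00, 0.55 to 0.86 and 1.00 to 1.32. With spike-in scaling the counts were 4 higher and 0 lower, with Satb1 not called (log2 0.50, adjusted p = 0.0526), S1pr1 at -0.27 and not called, and Foxo1 at 0.06, opposite in sign, as were Mafk (0.06) and Maff (0.04). The S1pr1 call was also lost when KO replicate 2 stood alone for KO (-0.29), where that library is assumed to vary as WT does, and under the Y-linked term (-0.27), and both left 0 of the 9 genes called lower. Over all genes they gave 1490 higher and 1354 lower, and 1822 higher and 1638 lower. Upper-quartile scaling gave 3839 higher and 2895 lower, spike-in scaling 3085 and 1363, against 3466 and 3343. The causes were not tested.

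With libraries left out in turn, the counts ran from 4 to 5 higher and from 1 to 2 lower, and log2 changes from 0.31 to 0.50 for Bach2, from -0.54 to -0.19 for Klf2 and from -0.13 to 0.01 for Foxo1. Signs also turned for Tcf3 (-0.26 to 0.24), Foxo3 (-0.03 to 0.25), S1pr2 (-0.36 to 0.22) and S1pr4 (-0.33 to 0.27, and -0.01 with no filter), and for Tcf4 under the Y-linked term (-0.04). Same-numbered WT and KO libraries deviated together at correlations of -0.02, 0.01 and 0.08, beside -0.06 to 0.05 for libraries of unlike number. With 3 libraries per group such values cannot settle whether the numbers pair the samples, and the main test did not pair them. The replicate block gave 5 higher and 1 lower of the 9 and 3202 higher and 2988 lower of all genes. The log2 ratios moved by less than the SD between replicates with a prior count of 0.5. Leaving out 1 of 3 libraries cannot move a difference of group means by that much, so that limit is no check there. With libraries left out, the KO minus WT difference of S1pr1 over Klf2 ran from -0.25 to 0.09. That of Id3 over Id2 ran from 1.21 to 1.49 and that of Tcf7 over Id2 from 0.82 to 1.15. Tcf7 over Lef1 (0.12 to 0.21) and Klf2 over Foxo1 (-0.42 to -0.05) also kept their sign. At these depths the least counted of the 9 genes, Id3, had 332 to 941 counts per library.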
